A study of Homo sapiens with 7 samples.

Results

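The members of the miR-99/let-7/miR-125 clusters were examined in small extracellular vesicles (sEVs): hsa-miR-99b-5p, hsa-let-7e-5p and hsa-miR-125a-5p of one cluster, and their paralogs hsa-miR-99a-5p, hsa-let-7c-5p, hsa-miR-125b-5p and hsa-miR-100-5p. These 7 mature miRNAs of 2656 in the count table were taken by name. They were picked because the counts of let-7e-5p and miR-99b-5p were higher in shSYNCRIP, so every difference between the groups is given below as a description, with no test. The sEVs came from HepG2, a human hepatocellular carcinoma line, grown in sEV-depleted serum. The cells carried a doxycycline-inducible lentiviral short hairpin RNA, which was a control in 3 libraries (shCTR) and targeted SYNCRIP in 4 (shSYNCRIP). Per the study's methods, infected cells were selected with puromycin, and hairpin expression was induced with doxycycline. SYNCRIP is an RNA-binding protein implicated in the loading of miRNAs into sEVs. Vesicles were collected by differential ultracentrifugation, and the sources used here do not say whether the silenced cells were a pool or a clone. A cell line field in the sample labels counts upward from HepG2 to HepG8, whereas all sample titles name HepG2.

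Each mature miRNA is cut from 1 arm of a hairpin and guides an Argonaute protein to transcripts that pair with its seed, the bases near its 5′ end. In mammals, a miR-99/100, a let-7 and a miR-125 hairpin lie together in clusters that are copies of one another, and the hairpins of a cluster are thought to be processed from shared primary transcripts. let-7 miRNAs are known as brakes on proliferation and stem cell programs, in liver as elsewhere, miR-125 miRNAs descend from the lin-4 family that works beside let-7 in worm development, and miR-99/100 miRNAs are known to repress mTOR.

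The sequences are shown because the paralogs differ by so few bases. All 7 were matched by name to RefSeq mature miRNAs (GRCh38.p14) and are written 5′ to 3′ with the seed, bases 2 to 8, in capitals. The miR-99/100 members share 1 seed.
hsa-miR-99b-5p: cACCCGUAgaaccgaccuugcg
hsa-miR-99a-5p: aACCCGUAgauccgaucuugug
hsa-miR-100-5p: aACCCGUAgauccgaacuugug
The let-7 members share another.
hsa-let-7e-5p: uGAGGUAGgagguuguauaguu
hsa-let-7c-5p: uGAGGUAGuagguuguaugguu
The miR-125 members share the last.
hsa-miR-125a-5p: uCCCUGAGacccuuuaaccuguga
hsa-miR-125b-5p: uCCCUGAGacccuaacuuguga

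Counting from the 5′ end, miR-99a-5p and miR-100-5p differ only by U16A. miR-99b-5p differs from miR-99a-5p by C1A, A11U, C16U and C21U, at both ends and in between, outside the seed. let-7e-5p differs from let-7c-5p by G9U and A19G, and from let-7a-5p, an abundant family member, by G9U alone. let-7c-5p differs from let-7a-5p by G19A and from let-7b-5p by A17G. miR-125a-5p and miR-125b-5p share their first 13 bases and then diverge by an edit distance of 3. How reads that fit several of these miRNAs were assigned is not given in the sources used here, so the split of counts between near-identical miRNAs is uncertain, above all between let-7e-5p, let-7c-5p and let-7a-5p and between miR-99a-5p and miR-100-5p.

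The miR-99b cluster lies in intronic sequence of SPACA6 on the plus strand of chromosome 19 (GRCh38), overlapping an exon of the antisense lincRNA SPACA6P-AS. miR-99b-5p maps to chr19:51692618-51692639, let-7e-5p to chr19:51692793-51692814 and miR-125a-5p to chr19:51693268-51693291, so the 5′ ends of the outer miRNAs are 650 bases apart. miR-99a-5p (chr21:16539101-16539122) and let-7c-5p (chr21:16539838-16539859) lie 737 bases apart in introns of the lincRNA gene MIR99AHG, on the plus strand, and a miR-125b-5p copy lies 50415 bases further on (chr21:16590253-16590274). On the minus strand of chromosome 11, miR-100-5p (chr11:122152275-122152296) and the other miR-125b-5p copy (chr11:122099809-122099830) lie 52466 bases apart in introns of MIR100HG, with a let-7a hairpin between them. miR-125b-5p counts therefore cannot be divided between the chromosome 11 and chromosome 21 loci.

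The libraries held between 29863 and 388226 miRNA counts, with shSYNCRIP 2 the shallowest, and 100 to 275 miRNAs were detected in each, with shSYNCRIP 4 at the low end. Where a miRNA had 0 counts, 3 counts were taken as the limit, which is 0.000773% of the counts of shCTR 3 and 0.0100% of those of shSYNCRIP 2, for counting error only. The hepatocyte markers (miR-122-5p, miR-192-5p, miR-194-5p, miR-148a-3p) summed to 0.523% to 1.01% of shCTR and 0.272% to 1.49% of shSYNCRIP counts. They did not go together. miR-122-5p made up 0.272% to 1.48% of the counts, whereas miR-192-5p, also abundant in hepatocytes, had at most 1 count in any library. miR-194-5p ran from 0 to 1120 counts and miR-148a-3p from 0 to 298, with 0 of both in shSYNCRIP 4. The erythroid markers (miR-486-5p, miR-451a, miR-144-3p) summed to 9.49% to 18.7% of shCTR and 8.54% to 12.3% of shSYNCRIP counts. Of these, miR-486-5p alone made up 8.54% to 18.5% across the libraries. miR-144-3p was counted only in shSYNCRIP 3, and miR-451a had 1 count in shSYNCRIP 2 and 0 in shSYNCRIP 4. The leukocyte markers (miR-223-3p, miR-142-3p, miR-142-5p, miR-150-5p) summed to 1.15% to 2.33% of shCTR and 0.317% to 1.59% of shSYNCRIP counts. The endothelial pair miR-126-3p and miR-126-5p summed to 1.06% to 3.44% and 0.0234% to 1.98%. The part of these markers in the member values was not tested.

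All 7 members passed the default low-count filter of edgeR, as 117 miRNAs of the table did, and together they made up 1.34%, 1.61% and 1.98% of the shCTR counts and 2.66%, 2.87%, 2.05% and 1.24% of the shSYNCRIP counts, libraries being given here and below in the order of their replicate numbers. The highest and the lowest of these shares were both shSYNCRIP libraries. Mean log2 CPM over the 7 libraries (CPM are counts scaled to a common library size by TMM, with a prior count of 2) placed miR-99a-5p first at 12.91 ± 0.44 (SD, n = 7), followed by let-7c-5p (11.87 ± 0.71), let-7e-5p (10.78 ± 1.24), miR-100-5p (10.29 ± 2.70), miR-125b-5p (8.94 ± 2.13), miR-125a-5p (7.79 ± 2.14) and miR-99b-5p (7.06 ± 3.54). Mature miRNAs are of nearly one length, so no length correction was made, but the order still rests on how reads were divided among near-identical miRNAs, and differences in capture between sequences were not tested. miR-99a-5p ranked 23rd and miR-99b-5p 92nd of the 117 miRNAs by this measure. Among neighbours in the order, miR-99a-5p exceeded let-7c-5p in 7 of 7 libraries by 1.04 ± 0.95 on the log2 scale, and miR-100-5p exceeded miR-125b-5p in 6 of 7 by 1.35 ± 1.09. The other neighbours did not differ beyond their spread. For let-7e-5p over miR-100-5p the mean difference of 0.49 had an SD of 2.88, and let-7e-5p was the higher in only 2 of 7 libraries.

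The members differed in how steady they were. The SD of 3.54 of miR-99b-5p was the 23rd largest of the 117 miRNAs, whereas miR-99a-5p and let-7c-5p stood at places 113 and 103, among the steadiest, and the median SD of all 117 was 2.58. The plot of member levels shows the same contrast. Each SD was taken over both groups, so that of miR-99b-5p includes the group difference on which it was picked. Within the groups its SD was 0.59 in shCTR and 4.25 in shSYNCRIP. Steadiness was not separated from abundance, and miR-99b-5p was the least abundant member.

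**Figure D1:**
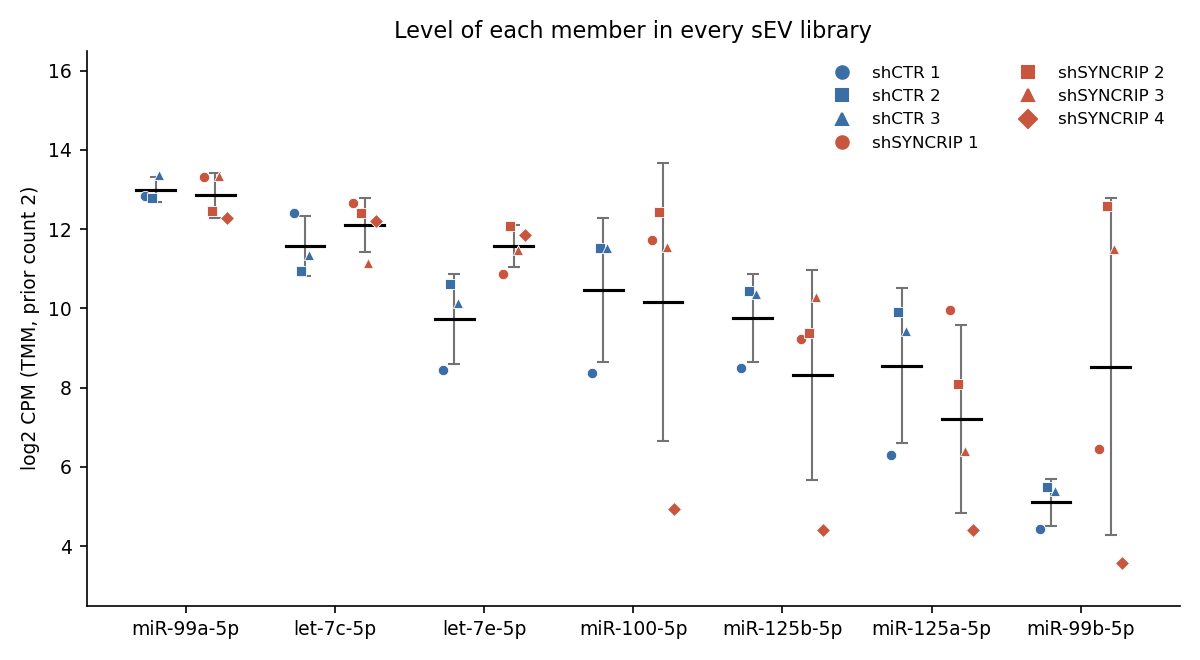
Level of each member in every library, as log2 CPM (TMM, prior count 2) on the vertical axis, with blue points for shCTR and red points for shSYNCRIP, black lines for group means and grey bars for the SD. miR-99a-5p lies in a narrow band around 12.91, while shSYNCRIP 4 lies far below the other libraries of its group for miR-100-5p and miR-125b-5p.

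miR-99b-5p, the miR-99/100 member of the chromosome 19 cluster, was almost absent from shCTR. Its counts were 1, 5 and 12 in shCTR and 13, 188, 633 and 0 in shSYNCRIP, or 9.62, 33.5 and 29.9 CPM against 76.3, 6123, 2902 and 0 CPM. Only shSYNCRIP 2 and shSYNCRIP 3 were high, shSYNCRIP 1 was slightly above the shCTR libraries, and shSYNCRIP 4 had no count, so the groups overlapped. The 0 of shSYNCRIP 4 allows a share of up to 0.00261%. That limit lies below the shares of shCTR 2 (0.00340%) and shCTR 3 (0.00309%) but above that of shCTR 1 (0.000940%). A level below all shCTR libraries was therefore not detectable at this depth. Mean CPM was 24.4 ± 12.9 (SD, n = 3) in shCTR and 2275 ± 2899 (n = 4) in shSYNCRIP, an SD larger than the mean. The fitted log2 fold change was 3.84 (SE 2.55) in limma-voom, 6.51 in the edgeR quasi-likelihood fit and 6.53 (SE 1.94) in DESeq2, values that depend on how each tool treats the low counts.

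let-7e-5p, the let-7 member of the same cluster, was the member whose groups did not overlap. It was picked for being higher in shSYNCRIP, and 2.56% of the 117 miRNAs were separated in this direction. It had 35, 232 and 446 counts in shCTR and 314, 133, 621 and 394 in shSYNCRIP, or 337, 1556 and 1111 CPM against 1842, 4332, 2847 and 3693 CPM. All 4 shSYNCRIP libraries lay above all 3 shCTR libraries once scaled for depth, with a gap from 1556 to 1842 CPM between the nearest libraries. Mean CPM was 1001 ± 617 (SD, n = 3) in shCTR and 3179 ± 1079 (n = 4) in shSYNCRIP, a ratio of 3.17. The log2 fold change was 1.55 (SE 1.86) in limma-voom, 1.69 in the quasi-likelihood fit and 1.69 (SE 0.84) in DESeq2. Without shCTR 1, the library with the lowest let-7e-5p level, the limma-voom value was 0.87.

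miR-125a-5p, the miR-125 member of that cluster, had at most 16 counts in 3 of the 4 shSYNCRIP libraries. Its counts were 7, 142 and 271 in shCTR and 168, 8, 16 and 1 in shSYNCRIP, or 67.4, 953 and 675 CPM against 986, 261, 73.4 and 9.37 CPM. The highest and the lowest library were both shSYNCRIP, and the groups overlapped. Of the shSYNCRIP libraries highest in miR-99b-5p, shSYNCRIP 3 was low in miR-125a-5p, whereas shSYNCRIP 2 stood at the median of all libraries (261 CPM). The library with the most miR-125a-5p, shSYNCRIP 1, had 13 counts of miR-99b-5p. Both miRNAs were low in shCTR 1 and shSYNCRIP 4. The log2 fold change was -1.47 (SE 2.61) in limma-voom and -0.76 and -0.87 in the other fits.

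The makeup of the chromosome 19 cluster therefore varied between libraries. let-7e-5p supplied 81.4%, 61.2% and 61.2% of its counts in shCTR and 63.4%, 40.4%, 48.9% and 99.7% in shSYNCRIP. miR-99b-5p supplied 57.1% in shSYNCRIP 2 (exact Clopper-Pearson 95% interval 51.6% to 62.6%) and 49.8% in shSYNCRIP 3 (47.1% to 52.6%), against at most 2.63% in each of the other libraries. Such intervals, here and below, cover counting error within a single library and not the spread between replicates. miR-125a-5p supplied 16.3% to 37.5% in shCTR, 33.9% in shSYNCRIP 1 and at most 2.43% in the rest of shSYNCRIP. The cluster as a whole made up 0.0404%, 0.258% and 0.188% of the shCTR counts and 0.328%, 1.10%, 0.527% and 0.344% of the shSYNCRIP counts, which restates the selection on let-7e-5p and miR-99b-5p.

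miR-99a-5p, the paralog of miR-99b-5p on chromosome 21, was the most abundant and the steadiest member. It had 753, 1052 and 4204 counts in shCTR and 1749, 173, 2257 and 527 in shSYNCRIP, or 7247, 7057 and 10474 CPM against 10261, 5634, 10348 and 4940.2 CPM. The groups overlapped, and no shSYNCRIP library lay above all shCTR libraries in CPM. By share of library counts, shSYNCRIP 1 (1.16%) lay above shCTR 3 (1.08%), the highest of the shCTR libraries. The mean CPM was 8259 ± 1921 (SD, n = 3) in shCTR and 7796 ± 2911 (n = 4) in shSYNCRIP, with log2 fold changes from -0.20 to -0.02 over the 3 fits (SE 0.78 in limma-voom).

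let-7c-5p, the let-7 member beside it, had 561, 290 and 1046 counts in shCTR and 1100, 167, 488 and 501 in shSYNCRIP, or 5399, 1945 and 2606 CPM against 6454, 5439, 2237 and 4696 CPM. The groups overlapped, although 2 shSYNCRIP libraries lay above every shCTR library. The log2 fold change was 0.50 (SE 1.14) in limma-voom, 0.54 in the quasi-likelihood fit and 0.53 in DESeq2. It became -0.28 without shSYNCRIP 1, -0.11 without shCTR 2 and -0.13 without shSYNCRIP 4. Summed, miR-99a-5p and let-7c-5p took 1.24%, 0.914% and 1.35% of the shCTR counts and 1.89%, 1.14%, 1.14% and 0.894% of the shSYNCRIP counts, groups that overlapped.

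miR-100-5p, the miR-99/100 member on chromosome 11, had 33, 436 and 1175 counts in shCTR and 571, 169, 653 and 2 in shSYNCRIP, or 318, 2925 and 2927 CPM against 3350.0, 5504, 2994 and 18.7 CPM. In 3 shSYNCRIP libraries its CPM lay above every shCTR library, in shSYNCRIP 3 only narrowly (2994 against 2927). By share of library counts, shSYNCRIP 3 (0.271%) lay below shCTR 2 (0.297%) and shCTR 3 (0.303%). In shSYNCRIP 4 miR-100-5p lay far below all shCTR libraries. Its direction turned with the method: the log2 fold change was -0.68 (SE 2.05) in limma-voom but 0.54 in the quasi-likelihood fit and 0.45 (SE 1.45) in DESeq2, and in limma-voom it was 0.35 without shSYNCRIP 4 and 0.12 without shCTR 3.

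miR-125b-5p, made from both the chromosome 11 and the chromosome 21 cluster, had 36, 205 and 526 counts in shCTR and 100, 20, 271 and 1 in shSYNCRIP, or 346, 1375 and 1310.5 CPM against 587, 651, 1243 and 9.37 CPM. No shSYNCRIP library lay above all shCTR libraries, and shSYNCRIP 4 lay below them all. The log2 fold change was -1.67 (SE 2.37) in limma-voom, -0.68 in the quasi-likelihood fit and -0.85 in DESeq2, and -0.58 in limma-voom without shSYNCRIP 4.

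Libraries shCTR 1 and shSYNCRIP 4 thus held the members unevenly. In shSYNCRIP 4, 527 counts of miR-99a-5p, 501 of let-7c-5p and 394 of let-7e-5p stood beside at most 2 counts of each of the other members. shCTR 1 had at most 36 counts of each member other than miR-99a-5p and let-7c-5p. Without shSYNCRIP 4, the limma-voom log2 fold change was 5.02 for miR-99b-5p, 1.08 for let-7e-5p, -0.79 for miR-125a-5p and -0.16 for miR-99a-5p. In shSYNCRIP 4 the leukocyte sum was 0.317%, all of it miR-223-3p at 364 counts. The endothelial sum there was 0.566%, with 0 counts of miR-126-3p and 651 of miR-126-5p. In shSYNCRIP 2, where miR-99b-5p was highest, the leukocyte sum was 0.419%, with miR-150-5p giving 120 of its 125 counts. The endothelial sum was 0.0234%, with 5 counts of miR-126-3p and 2 of miR-126-5p.

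The members were read against the calls over the whole table. Under the study's criteria in limma-voom (nominal p under 0.1 and an absolute fold change over 0.5, taken here as log2), 5.13% of the 117 miRNAs were higher in shSYNCRIP and 12.8% were lower, and 0 members were among either, although 1 or 2 members met the same cutoffs in some of the alternative fits. The edgeR quasi-likelihood test with Benjamini-Hochberg adjustment called 0% at an adjusted p under 0.05, where 2 miRNAs had an unadjusted p under 0.05, limma-voom gave 3 adjusted calls and DESeq2 gave 3. DESeq2 called 2.56% at an adjusted p under 0.05, 1 of them a member, miR-99b-5p, which had been selected on this contrast. Groups that did not overlap, with shSYNCRIP above, were found for 2.56% of the miRNAs, 1 of which was let-7e-5p, again selected on it, and with shSYNCRIP below for 4.27%, 0 of which were members. The median log2 fold change of the 7 members was -0.02 in limma-voom, 0.54 in the quasi-likelihood fit and 0.45 in DESeq2, beside -0.07, 0.09 and 0.01 over all 117. Of the members, 3 had a positive value in limma-voom and 4 in each of the other fits.

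**Figure D2:**
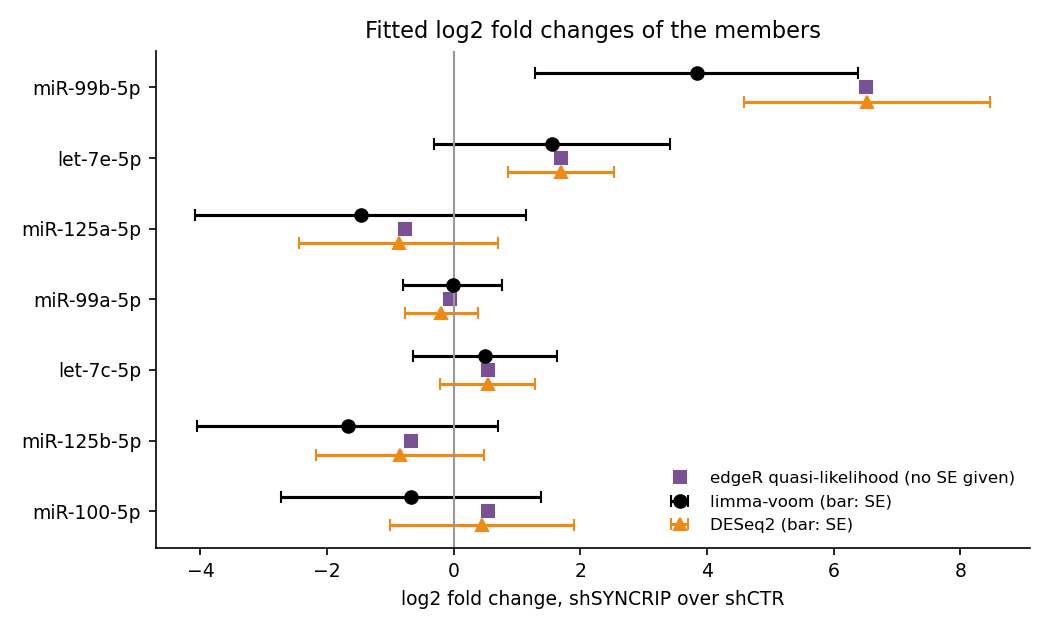
Log2 fold change of each member, shSYNCRIP over shCTR, in limma-voom (black circles), the edgeR quasi-likelihood fit (purple squares) and DESeq2 (orange triangles), with bars for the SE where the tool gives one. miR-99b-5p runs from 3.84 to 6.53 and miR-100-5p lies on both sides of 0.

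Paralogs of 1 seed were also compared within each library, which the choice of members did not use for miR-99a-5p against miR-100-5p and for the miR-125 members. miR-99a-5p exceeded miR-100-5p in 7 of 7 libraries, by 2.62 ± 2.47 on the log2 CPM scale (SD, n = 7), from 0.03 in shSYNCRIP 2, where the counts were 173 and 169, to 7.34 in shSYNCRIP 4, where they were 527 and 2. The two-sided exact sign-flip permutation test gave p = 0.0156, the smallest this design allows, and an adjusted p of 0.0781 over all 5 pairs, those given below as description included, which did not pass 0.05. miR-125a-5p was below miR-125b-5p in 5 libraries, equal in shSYNCRIP 4 at 1 count each and above it in shSYNCRIP 1, with a mean difference of -1.15 ± 1.52 (n = 7) and, by the same exact test, p = 0.0938 before and after adjustment.

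The other pairs contain the miRNAs on which the members were picked and are given as description. miR-99b-5p was below miR-99a-5p in 6 of 7 libraries, with log2 differences of -8.40, -7.28 and -7.97 in shCTR. In shSYNCRIP the differences were -6.86, 0.12, -1.83 and -8.71. Against miR-100-5p, miR-99b-5p was lower in 6 of 7 libraries, and in shSYNCRIP 3 both were nearly level, with 633 and 653 counts. let-7e-5p was below let-7c-5p in 6 of 7 libraries and above it in shSYNCRIP 3, with 621 against 488 counts.

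**Figure D3:**
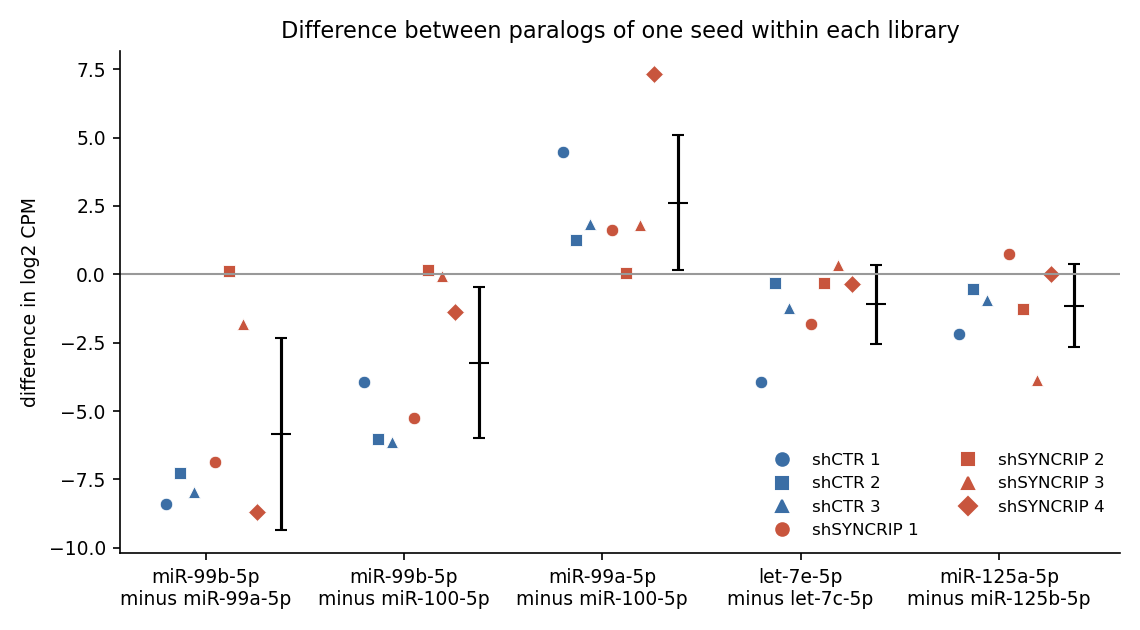
Difference in log2 CPM between paralogs that share a seed, for each library (blue shCTR, red shSYNCRIP), with the mean and SD over 7 libraries in black. miR-99a-5p lies above miR-100-5p in every library, and shSYNCRIP 2 and shSYNCRIP 3 lie nearest to 0 for miR-99b-5p minus miR-99a-5p.

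The balance of the miR-99/100 seed in the vesicles followed from these values. miR-99a-5p carried 95.7%, 70.5% and 78.0% of the family counts in shCTR and 75.0%, 32.6%, 63.7% and 99.6% in shSYNCRIP. miR-99b-5p carried 0.127% to 0.335% in shCTR, and in shSYNCRIP 0.557%, 35.5% (exact 95% interval 31.4% to 39.7%), 17.9% (16.6% to 19.2%) and 0%. In shSYNCRIP 2 the 3 family members were therefore nearly equal, at 188, 173 and 169 counts. The family as a whole took 0.740% to 1.39% of the shCTR counts and 0.460% to 1.77% of the shSYNCRIP counts, ranges that overlapped.

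let-7e-5p and let-7c-5p were minor members of their family. let-7e-5p carried 0.322%, 1.33% and 1.49% of the counts of let-7 and miR-98 in shCTR and 2.23%, 5.41%, 2.52% and 3.04% in shSYNCRIP, shares that did not overlap, on a miRNA selected for this contrast. let-7c-5p carried 5.17%, 1.66% and 3.50% in shCTR and 7.80%, 6.79%, 1.98% and 3.87% in shSYNCRIP. The family as a whole showed no such separation, with 10.2%, 11.9% and 7.70% of the shCTR counts and 9.36%, 8.24%, 10.2% and 11.3% of the shSYNCRIP counts. Of the other 7 family members, 5 had positive limma-voom log2 fold changes, from 0.01 for let-7i-5p to 0.28 for let-7g-5p, and 2 had negative ones, -0.17 for let-7d-5p and -0.96 for let-7b-5p. In each of the other fits, 4 of these 7 were positive. let-7a-5p, which is 1 base from let-7e-5p, stood at 34799, 33527 and 18721 CPM in shCTR and 24095, 13874, 29059 and 38022 CPM in shSYNCRIP, groups that overlapped. Its log2 fold change was 0.23 (SE 0.46) in limma-voom but -0.11 in each of the other fits.

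**Figure D4:**
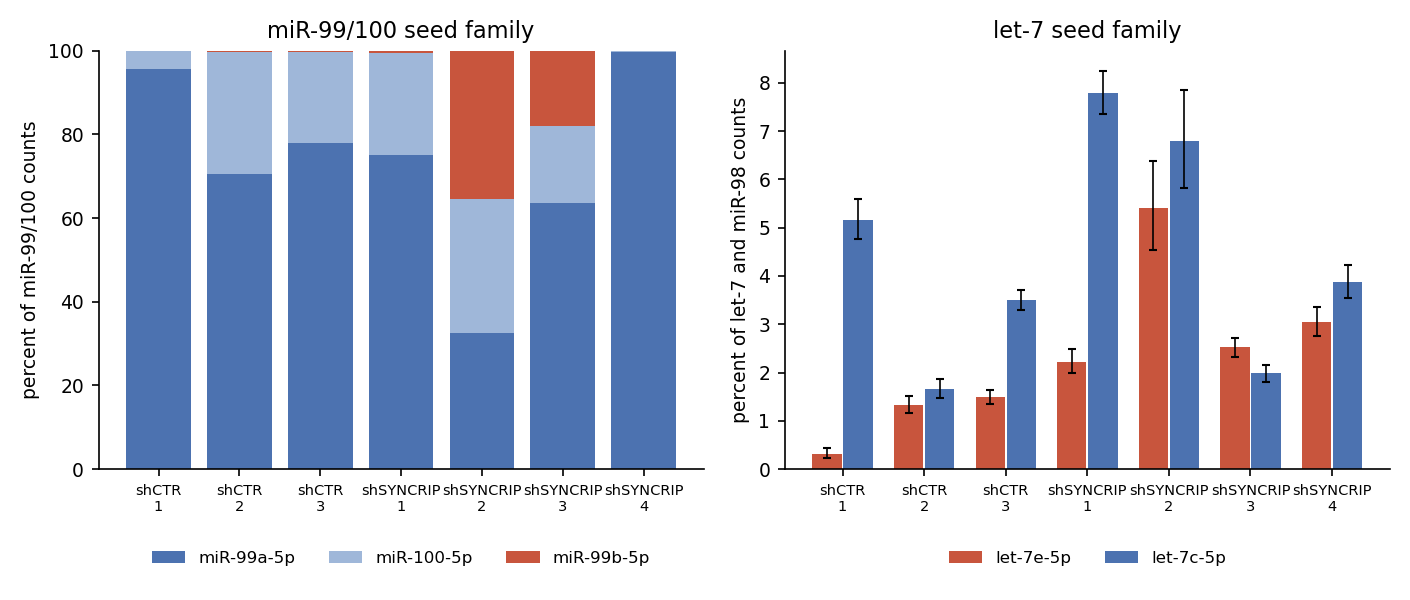
Left, percent of miR-99/100 counts carried by miR-99a-5p (dark blue), miR-100-5p (light blue) and miR-99b-5p (red) in each library. Right, percent of let-7 and miR-98 counts carried by let-7e-5p (red) and let-7c-5p (blue), with exact 95% binomial intervals, where let-7e-5p reaches 5.41% in shSYNCRIP 2.

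The opposite arms of the member hairpins were nearly absent. Of 9 such arms, counting let-7a-2-3p of the hairpin beside miR-100, 5 had 0 counts in all 7 libraries: miR-125a-3p, let-7c-3p, miR-100-3p, miR-125b-1-3p and let-7a-2-3p. miR-99b-3p had 2 counts in shCTR 1, let-7e-3p had 1 in shCTR 3, miR-99a-3p had 1 in shSYNCRIP 1, and miR-125b-2-3p had 1 in shCTR 3 and 3 in shSYNCRIP 1. At 0 counts, the share allowed was up to 0.0100% in the shallowest library, and the 188 and 633 counts of miR-99b-5p in shSYNCRIP 2 and shSYNCRIP 3 had no count of miR-99b-3p beside them.

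The pattern of each member over the 7 libraries was compared with all other tested miRNAs by the mean absolute difference in row-centred log2 CPM, which had a median of 2.57 over 6786 pairs. The nearest to miR-99b-5p was miR-335-5p (0.951), with counts of 4, 0 and 4 in shCTR and 22, 111, 208 and 0 in shSYNCRIP, followed by miR-382-5p (1.44) and miR-92b-3p (1.53). For let-7e-5p they were miR-23a-3p (0.731), miR-24-3p (0.745) and miR-23b-3p (0.749), and for miR-125a-5p they were miR-185-5p (0.997), miR-125b-5p (1.11) and miR-98-5p (1.11). miR-99a-5p was nearest to miR-16-5p (0.229), miR-139-5p (0.369) and miR-103a-3p (0.387), and let-7c-5p to miR-27b-3p (0.484), miR-122-5p (0.491) and miR-17-5p (0.543). miR-125b-5p and miR-100-5p were each other's second nearest at 0.813, behind miR-652-3p (0.774) for the former and miR-30e-3p (0.789) for the latter. Neighbours on the chromosome were not always near in pattern: the difference was 0.840 for miR-99a-5p and let-7c-5p, 2.28 for miR-99b-5p and let-7e-5p and 3.15 for miR-99b-5p and miR-125a-5p. These distances share libraries, depth and scaling factors and are a description only.

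The hEXO motif, the sequence the study searched as the SYNCRIP recognition element, is 6 bases long: 3 bases other than C, then a base other than U, then A or U, then G or C. It was sought on the mature strand after the first 7 bases. It was found in 2 of 7 members (28.6%), as UUUAAC from base 13 of miR-125a-5p and as UGUAUG from base 14 of let-7c-5p, and in neither of the miRNAs on which the members were picked. The same letters occurred in 63.6% of the 2367 miRNAs of the table with a RefSeq sequence and in 61.9% of the 105 tested miRNAs with one.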

How the data were processed

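Small RNA-seq was carried out by the authors on sEVs from 3 shCTR and 4 shSYNCRIP HepG2 cultures, described as biological replicates. Per the study's methods, reads were trimmed, filtered and counted with MiRDeep2 against miRBase. The submitters' processing notes name cutadapt, edgeR and GRCh38. The authors deposited raw counts per mature miRNA, not normalized, in 2656 rows. Totals of 29863 to 388226 counts limit the precision of rare miRNAs, and PCR copies are not independent molecules.

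The tools were limma 3.58.1, edgeR 4.0.16 and DESeq2 1.42.0 in R 4.3.3, and scipy 1.17.1 in Python 3.11.15. miRNAs were kept by filterByExpr (117), scaled by TMM (factors 0.905 to 1.13) and fitted across the whole table with limma-voom, as in the study, with the edgeR quasi-likelihood test and with DESeq2. The fits were tested on simulated data. log2 CPM used a prior count of 2. Paralog pairs were compared within libraries by exact sign-flip permutation. The named miRNAs were the members, their opposite arms, the rest of the let-7 family, mature miRNAs within 2 substitutions and the 3 nearest in pattern to each member. Replicate numbers were not taken to pair the libraries (correlations of same-numbered libraries -0.06, -0.03 and 0.09). The members and lists were chosen with earlier results of these data known. Host genes came from the GENCODE annotation of GRCh38. Alternatives were other scaling factors, filters, tests and prior counts, a replicate block and leaving out each library.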

Additional observations from a re-analysis of the deposited data

Results flagged for a closer look

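hsa-miR-100-5p in shSYNCRIP 4, at 4.94 log2 CPM (2 counts), lay far from the other libraries of its group, which stood at 11.72, 12.43 and 11.55 log2 CPM. It was the 1 value marked by Dixon's test among 13 measures examined in the 4 shSYNCRIP libraries, 7 member levels and 6 summed shares, of which chance alone would mark 0.65 on average. In the same library miR-125a-5p and miR-125b-5p had 1 count each and miR-99b-5p had 0, while miR-99a-5p had 527.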

How the results depend on the processing

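Under the study's criteria, 21 of 117 miRNAs were called, and 87 of 406 without a filter, 3 of 36 with at least 10 counts in every library, 13 with the replicate block, 8 with the edgeR quasi-likelihood test and 11 with DESeq2 at the same cutoffs. Leaving out 1 library gave 16 to 22. Members among these calls numbered 0 in the fit of the report and without a filter, 1 with at least 10 counts in every library, with the replicate block, without shSYNCRIP 4 and with the quasi-likelihood test, and 2 with DESeq2. At an adjusted p under 0.05 the quasi-likelihood count of 0 became 3 with limma-voom and 3 with DESeq2 and was 0 each time 1 library was left out. The causes were not tested. Replicate numbers were not taken to pair the libraries. Replicate 4 exists only in shSYNCRIP, so the replicate block takes shSYNCRIP 4 out of the comparison. With the block, the limma-voom log2 fold change was 5.59 for miR-99b-5p, 1.59 for let-7e-5p and -0.55 for miR-125a-5p. It was 0.14 for miR-99a-5p, 0.23 for let-7c-5p, -0.11 for miR-125b-5p and 0.63 for miR-100-5p.

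Of 98 member fold changes under these alternatives, 96 moved by less than the SD between replicates and 10 changed sign, for let-7c-5p, miR-99a-5p and miR-100-5p. That SD was wide, at 3.31 for miR-99b-5p and 2.95 for miR-100-5p, so refits of the same libraries could hardly exceed it. The 96 therefore do not show stability: miR-100-5p stayed within the SD in all 14 of its alternatives but changed sign in 5. With 1 library left out, miR-99b-5p ranged from 3.06 to 5.02, let-7e-5p from 0.87 to 1.78 and let-7c-5p from -0.28 to 0.80. In the same fits miR-99a-5p ranged from -0.53 to 0.30, miR-100-5p from -1.67 to 0.35, miR-125a-5p from -2.74 to -0.79 and miR-125b-5p from -2.55 to -0.58. miR-99b-5p passed the filter in only 4 of those 7 fits. It did not pass without shSYNCRIP 1, shSYNCRIP 2 or shSYNCRIP 3, so no fit in its range leaves out a library where it was high. The mean paralog differences kept their sign in all alternatives run, and the exact test on 6 libraries or fewer is too small to say more. Low counts limit miR-99b-5p in shCTR and miR-125a-5p, miR-125b-5p and miR-100-5p in shSYNCRIP 4.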
